A study of Mus musculus with 16 samples.

Results

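The genes followed here supply, recycle and spend glutathione, namely Slc7a11, Gclm, Gclc, Gss, Gsr, Gpx1, Gpx4, Gstm1, Mgst1 and Glrx. They were taken by name, and all of the probes that the array carries for them were used. That gave 13 probes for these 10 genes, with a pair of probes each for Gsr, Gstm1 and Mgst1, of 39429 probes and 20659 named genes in all. The RNA came from murine stem cell derived macrophages, for which the labels give neither strain nor line. Each of 4 groups had 4 arrays, which the design text calls independent biological replicates and the labels letter a, b, c and d. The groups were LPS at 10 ng/mL for 8 h, untreated control at 0 h, heme-albumin at 50 µM for 8 h, and heme-albumin at 200 µM for 8 h. LPS is bacterial lipopolysaccharide, a ligand of Toll-like receptor 4, and heme-albumin is heme bound to serum albumin. No control was given the 8 h incubation, so incubation time and treatment cannot be told apart.

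Glutathione is the tripeptide of glutamate, cysteine and glycine that serves as the main small thiol of animal cells. Cystine enters in exchange for glutamate through system xc-, whose transport subunit is Slc7a11 and whose partner is Slc3a2. Glutamate-cysteine ligase, made of the catalytic subunit Gclc and the modifier subunit Gclm, performs the rate-limiting step of synthesis, and Gss adds glycine. Peroxidases such as Gpx1 and Gpx4 oxidise glutathione, glutathione reductase (Gsr) reduces it again with NADPH, transferases such as Gstm1 and Mgst1 join it to electrophiles, and Glrx removes it from protein thiols. Several of these genes are known targets of NRF2, which binds antioxidant response elements with small Maf proteins and competes there with BACH1, a repressor that binds heme. Slc7a11 is also a known target of ATF4, and in macrophages it is known to be induced by LPS.

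Promoter sequence is shown for the genes that rose most with LPS, Slc7a11 and Glrx, and for the gene with the largest well-measured rise with heme-albumin, Gclm. Each sequence is the 250 bases before the transcription start, 5′ to 3′ on the strand of the gene, from RefSeq on build GRCm38.p6. Capitals mark every match, on either strand, to TGATGCAA (an amino acid response element of the kind ATF4 binds), TGACNNNGC (the core of an antioxidant response element) or TGACTCA (an AP-1 element). An AP-1 element followed by GC would also match the antioxidant core, and no such overlap occurs in these sequences.
Slc7a11, chr3:50443614-50443863, minus strand: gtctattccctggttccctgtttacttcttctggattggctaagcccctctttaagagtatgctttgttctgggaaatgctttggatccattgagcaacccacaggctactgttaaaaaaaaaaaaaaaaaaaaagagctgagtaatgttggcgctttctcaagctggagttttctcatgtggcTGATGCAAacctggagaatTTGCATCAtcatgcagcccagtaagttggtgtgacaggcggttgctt
Gclm, chr3:122245307-122245556, plus strand: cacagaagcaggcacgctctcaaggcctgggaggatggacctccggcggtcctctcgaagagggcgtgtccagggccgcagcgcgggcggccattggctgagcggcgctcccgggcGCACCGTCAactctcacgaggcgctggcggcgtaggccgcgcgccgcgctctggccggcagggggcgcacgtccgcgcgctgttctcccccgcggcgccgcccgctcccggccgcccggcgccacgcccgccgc
Glrx, chr13:75839635-75839884, plus strand: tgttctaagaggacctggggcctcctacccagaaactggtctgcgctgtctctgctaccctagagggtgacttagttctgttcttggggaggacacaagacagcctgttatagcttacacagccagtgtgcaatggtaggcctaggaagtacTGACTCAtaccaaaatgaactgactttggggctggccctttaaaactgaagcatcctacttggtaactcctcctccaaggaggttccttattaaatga

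The Slc7a11 window held 2 matches to TGATGCAA, 1 on each strand, whose first bases lay 66 and 47 bases before the start. That motif was present in 260 of 32851 windows of the same length, or 0.791%. The Gclm window held 1 antioxidant response element core, GCACCGTCA on the opposite strand, 134 bases before the start, and 10.2% of all windows held that motif. The Glrx window held 1 match to TGACTCA, 98 bases before the start, and 4.46% of all windows held it. Windows were at hand for 8 of the 10 genes, which have 14 windows between them. The same Glrx site also lies in a second Glrx window, whose start is 1 base further on, and 1 window of Mgst1 held an antioxidant core 56 bases before the start. These are matches of letters and not measured binding sites.

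Each array carried a sample in red (Cy5) against untreated reference RNA in green (Cy3), and control arrays carried untreated RNA in both colours. A value below is the log2 of red over green on 1 array, so 1 unit is a 2-fold difference from untreated RNA. Differences between groups are differences of mean log2 ratio from one limma fit to all 16 arrays, with the standard error (SE), and p-values were adjusted by Benjamini-Hochberg over 12759 genes. Each SE rests on a spread pooled over all 4 groups, also those outside the comparison. For Gclm, Gclc and Gss the LPS arrays spread most, so their SE is not the scatter of heme-albumin and control arrays alone. Calls needed a difference of 2-fold or more together with an adjusted p below 0.05. Green signal of the members was itself 2.31 to 2.75 times as high on LPS arrays as on the control array of the same letter (medians over 9 members), so levels are compared through the ratios and not through red signal. Replicates a and b had been scanned on one day and replicates c and d on a later one, so each scan day holds 2 arrays of every group. Each group sat at its own position on the slide, so position and group cannot be told apart.

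All 9 macrophage markers on the array were well above background on all 16 arrays. Of 6 pluripotency genes, Pou5f1, Sox2 and Zfp42 were well above background on none of the 16 arrays, Dppa5a was on 4, Esrrb on 13 and Nanog on 16. Of 5 progenitor markers, Cd34 and Meis1 were above background on 16 arrays, Flt3 on 6, Gata2 on 3 and Kit on 1. Of 5 granulocyte markers, Elane, S100a8 and S100a9 were above background on 16 arrays, and Mpo and Ngp on 11. Of 5 dendritic cell markers, Zbtb46 was above background on 14 arrays, Ccr7 on 8, Flt3 on 6, Clec9a on 4 and Xcr1 on none. Summed red signal of the dendritic cell markers was 1052 to 14320 with LPS, 36.0 to 51.5 on control arrays, 40.1 to 62.7 at 50 µM and 37.2 to 67.5 at 200 µM. These sums are not corrected for the higher signal of LPS arrays, so their size is no measure of a change in level. The part of other cells in the results below was not tested. In RNA of whole cultures, fewer cells of a type and less RNA per cell cannot be told apart.

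With LPS, 3 of the 10 genes rose (Slc7a11, Glrx and Gsr) and 1 fell (Gpx4), in a comparison that called 30.7% of all genes tested (14.0% higher, 16.7% lower). The 4 of 10 called lies near that background, and the members' median difference was -0.14 against -0.09 over all genes. Heme-albumin at 200 µM raised 5 members (Slc7a11, Gclm, Gclc, Gsr and Gstm1) and lowered none, where 3.03% of all genes were called (2.05% higher, 0.98% lower). The median over the 10 members was 1.23, against -0.02 over all genes. At 50 µM, Gclm and Gclc were called, both higher, where 0.368% of all genes were called (0.29% higher, 0.0784% lower), and the median over members was 0.57 against -0.01. On adjusted p alone, 8 members passed with LPS (3 higher, 5 lower), all 10 with 200 µM heme-albumin (8 higher, 2 lower) and 3 with 50 µM (all higher). Of all genes, 78.8% passed on adjusted p alone with LPS (34.5% higher, 44.3% lower), 22.8% at 200 µM (10.8% higher, 12% lower) and 3.52% at 50 µM (2.07% higher, 1.45% lower). The 3 comparisons share the same control arrays. Separate ranges, noted below gene by gene, were common among all genes with 4 ratios in each group. Against control they were found for 72.1% with LPS, 35.5% at 200 µM and 19% at 50 µM. The share was 21.3% between the doses, 70.5% for 200 µM against LPS and 72.4% for 50 µM against LPS.

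**Figure D1:**
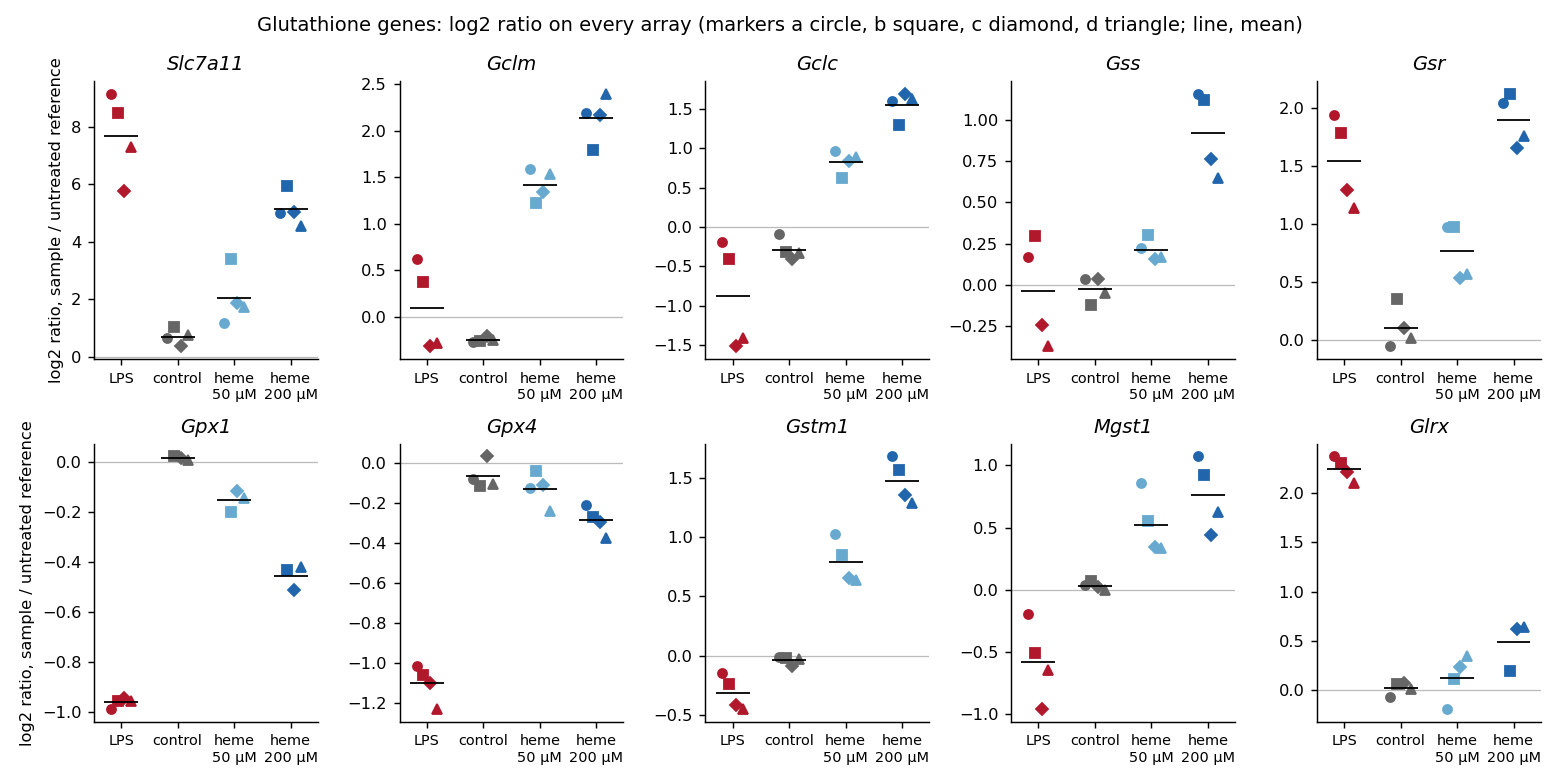
Log2 ratio of sample over untreated reference (vertical axis, its own scale in each panel) for the 10 genes on every array, with LPS, control, heme-albumin 50 µM and heme-albumin 200 µM along the horizontal axis. Symbols give the replicate letter and lines the group mean; Slc7a11 and Glrx are highest on LPS arrays, Gclm, Gclc and Gstm1 climb from control through both doses, and Gpx1 and Gpx4 are lowest on LPS arrays.

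Slc7a11 (gene ID 26570, chromosome 3), the cystine carrier, rose with LPS and with 200 µM heme-albumin, though the size of its difference from control depends on how dim signal is treated. Its log2 ratios on arrays a to d were 9.16, 8.50, 5.79 and 7.31 with LPS, against 0.66, 1.02, 0.35 and 0.74 on control arrays. With heme-albumin they were 1.18, 3.39, 1.88 and 1.74 at 50 µM and 5.00, 5.94, 5.04 and 4.56 at 200 µM. Every LPS array and every 200 µM array lay above every control array and every 50 µM array. All LPS arrays but c also lay above the highest 200 µM array.

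The ratios of Slc7a11 have a weak footing in resting cells. Its red spot was well above background on 4 of 4 arrays with LPS, 4 of 4 with 50 µM heme-albumin, 4 of 4 with 200 µM and only 1 of 4 control arrays (c), and its green spot was well above background on none of the 16. The red processed signal was 4197, 6410, 1588 and 1262 on LPS arrays a to d, against 6.80, 5.92, 13.4 and 6.14 on control arrays. It was 31.5, 26.9, 47.2 and 42.1 at 50 µM and 157.5, 199.5, 280.6 and 168.3 at 200 µM. In multiples of the dimmest red signal that was well above background on the same array, these are 40.0 to 329 with LPS, 0.351 to 1.69 on control arrays, 2.32 to 4.71 at 50 µM and 6.49 to 28.1 at 200 µM. The 4 groups did not overlap on that scale, and 3 of the 4 control values lay below that dimmest signal.

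The fitted difference of Slc7a11 was 6.99 ± 0.61 for LPS against control (adjusted p = 6.1e-08), 4.44 ± 0.61 for 200 µM (9.5e-05) and 1.35 ± 0.61 for 50 µM (0.34). With dim signals raised to the lowest measurable signal of their array, they became 6.66, 3.63 and 1.53. Normexp background correction was run with an offset of 50, which is added to every signal and so shrinks the ratios of dim spots. With it the differences became 4.53, 1.01 and 0.41, and the 200 µM call was lost (adjusted p = 0.24). The 200 µM difference of Slc7a11 then lay below that of Gclm (2.12). On red signal alone, 50 µM passed the test as well (2.04, adjusted p = 0.039). The order was LPS above 200 µM heme-albumin (200 µM minus LPS -2.55 ± 0.61, adjusted p = 0.0014), and 200 µM above 50 µM (3.09 ± 0.61, adjusted p = 0.0057), while 50 µM against control did not pass the test although their ranges did not overlap. The step between the doses was not called with normexp (0.60, adjusted p = 0.88) or on the first scan day alone (3.18, adjusted p = 0.062).

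**Figure D2:**
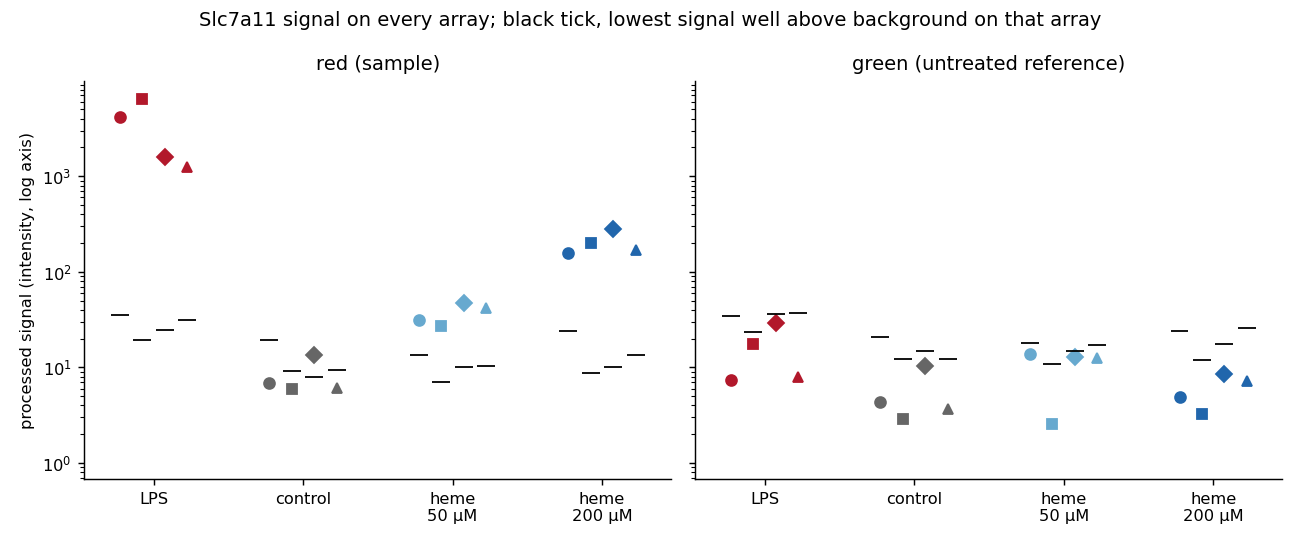
Processed signal of the Slc7a11 probe on a log axis, red (sample) in the left panel and green (untreated reference) in the right, by group and array; black ticks mark the lowest signal that was well above background on each array. Red signals stand far above the ticks with LPS (1262 to 6410) and clearly above them at 200 µM (157.5 to 280.6), while 3 of 4 control spots and all green spots lie below them.

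Gclm (gene ID 14630, chromosome 3), the modifier subunit of glutamate-cysteine ligase, rose with both doses of heme-albumin. Its log2 ratios were 1.59, 1.22, 1.34 and 1.53 on 50 µM arrays a to d and 2.19, 1.79, 2.17 and 2.40 on 200 µM arrays, against -0.27, -0.26, -0.20 and -0.25 on control arrays. The 3 ranges did not overlap, and the control arrays lay close together. The difference from control was 2.38 ± 0.18 at 200 µM (5.21-fold, adjusted p = 4.0e-07) and 1.67 ± 0.18 at 50 µM (3.17-fold, adjusted p = 0.00011), though the 50 µM call was lost on red signal alone (1.58, adjusted p = 0.21). The higher dose stood 0.71 ± 0.18 above the lower (1.64-fold, adjusted p = 0.029), under the 2-fold limit. That step did not pass with normexp (0.58, adjusted p = 0.088) or on red signal alone (0.86, adjusted p = 0.58). Nor did it pass on the first scan day (0.58, adjusted p = 0.13).

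LPS arrays a to d gave Gclm ratios of 0.62, 0.37, -0.32 and -0.28. Arrays a and b, read on the first scan day, lay above all control arrays, and arrays c and d below them. Over the 4 arrays the difference from control was 0.34 ± 0.18 (adjusted p = 0.10), made of 0.76 on the first scan day and -0.07 on the second. Whether the days differ was not tested.

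Gclc (gene ID 14629, chromosome 9), the catalytic subunit, followed the same order at a smaller size. Its ratios were 0.96, 0.63, 0.84 and 0.89 on 50 µM arrays a to d and 1.60, 1.30, 1.70 and 1.63 on 200 µM arrays, against -0.09, -0.32, -0.41 and -0.34 on control arrays. None of the 3 ranges overlapped. The difference from control was 1.85 ± 0.24 at 200 µM (3.59-fold, adjusted p = 5.5e-05) and 1.12 ± 0.24 at 50 µM (2.17-fold, adjusted p = 0.016). The 50 µM call was lost when any one of control arrays b, c or d, or of 50 µM arrays a or d, was left out (1.07 to 1.11, adjusted p 0.05 to 0.057). It was lost as well on the first scan day (0.998, adjusted p = 0.035) and on red signal alone (1.11, adjusted p = 0.41). The gap between doses was 0.73 ± 0.24 and was not called (adjusted p = 0.085). That SE includes the spread of the LPS arrays, which are outside this comparison. The standard deviation of the Gclc ratios was 0.677 with LPS, 0.176 at 200 µM, 0.144 at 50 µM and 0.139 on control arrays.

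On LPS arrays the Gclc ratios were -0.20, -0.41, -1.52 and -1.41, with a inside the control range, b just below it and c and d far below it. The fitted difference from control was -0.60 ± 0.24 (adjusted p = 0.033), short of 2-fold. By scan day it was -0.10 on the first and -1.09 on the second, where it was called.

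Gss (gene ID 14854, chromosome 2), which completes the tripeptide, was highest at 200 µM. Its ratios were 0.22, 0.30, 0.15 and 0.17 on 50 µM arrays a to d and 1.16, 1.12, 0.77 and 0.65 on 200 µM arrays, against 0.03, -0.12, 0.03 and -0.05 on control arrays. The 3 ranges did not overlap. The difference from control at 200 µM was 0.95 ± 0.14 (1.93-fold, adjusted p = 2.0e-04), just short of the 2-fold limit, and it was called on the first scan day alone (1.19), on red signal alone (1.06) and without 200 µM array c (1.01) or d (1.04). At 50 µM it was 0.24 ± 0.14 (adjusted p = 0.51). With LPS, arrays a and b (0.17 and 0.30) lay above the control range and arrays c and d (-0.25 and -0.37) below it, which gave -0.01 ± 0.14 over the 4 arrays (adjusted p = 0.94).

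Gsr (gene ID 14782, chromosome 8), the reductase that returns oxidised glutathione to the pool, was called higher with both LPS and 200 µM heme-albumin. Its brighter probe read 1.93, 1.78, 1.29 and 1.14 on LPS arrays a to d, against -0.06, 0.35, 0.10 and 0.01 on control arrays. On heme-albumin arrays it read 0.97, 0.98, 0.53 and 0.56 at 50 µM and 2.04, 2.12, 1.65 and 1.76 at 200 µM. Both doses and LPS lay above every control array, and LPS overlapped 200 µM.

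Relative to control, Gsr differed by 1.44 ± 0.18 with LPS (2.71-fold, adjusted p = 2.9e-06) and by 1.79 ± 0.18 at 200 µM (3.47-fold, adjusted p = 4.1e-06). The difference between 200 µM and LPS did not pass the test (200 µM minus LPS 0.36 ± 0.18, 95% confidence interval -0.02 to 0.74, adjusted p = 0.08). With the replicate letter as a block its adjusted p was 0.012 and with scan day as a block 0.0071, at the same size under 2-fold. At 50 µM the brighter probe gave 0.66 ± 0.18 (adjusted p = 0.06) and the dimmer one 0.80 ± 0.13 (adjusted p = 0.0029), both under 2-fold, and with the blocks the brighter probe had an adjusted p of 0.0064 (replicate) and 0.0022 (scan day). The step between the doses was 1.13 ± 0.18 (2.19-fold, adjusted p = 0.00097), called on each scan day and on both probes.

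Glrx (gene ID 93692, chromosome 13), which strips glutathione from protein thiols, rose with LPS and was called at neither dose of heme-albumin. Its ratios were 2.37, 2.30, 2.21 and 2.09 on LPS arrays a to d, against -0.07, 0.06, 0.08 and 0.01 on control arrays. They were -0.19, 0.11, 0.23 and 0.35 at 50 µM and 0.20, 0.62 and 0.64 on arrays b to d at 200 µM, where the spot of array a carried an outlier flag and was left out. The LPS arrays stood far above every other array, and 50 µM overlapped both control and 200 µM.

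The LPS difference of Glrx was 2.22 ± 0.12 (4.67-fold, adjusted p = 5.4e-10). At 200 µM it was 0.47 ± 0.13 with 3 arrays (1.38-fold, adjusted p = 0.017), and it was 0.19 and not significant with the flagged spot kept (adjusted p = 0.58). With the replicate block its adjusted p was 0.053. At 50 µM it was 0.11 ± 0.12 (adjusted p = 0.81). Set directly against LPS, 200 µM was lower by 1.76 on the log2 scale (-1.76 ± 0.13, adjusted p = 1.7e-08) and 50 µM by 2.12 (-2.12 ± 0.12, adjusted p = 9.3e-10).

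**Figure D3:**
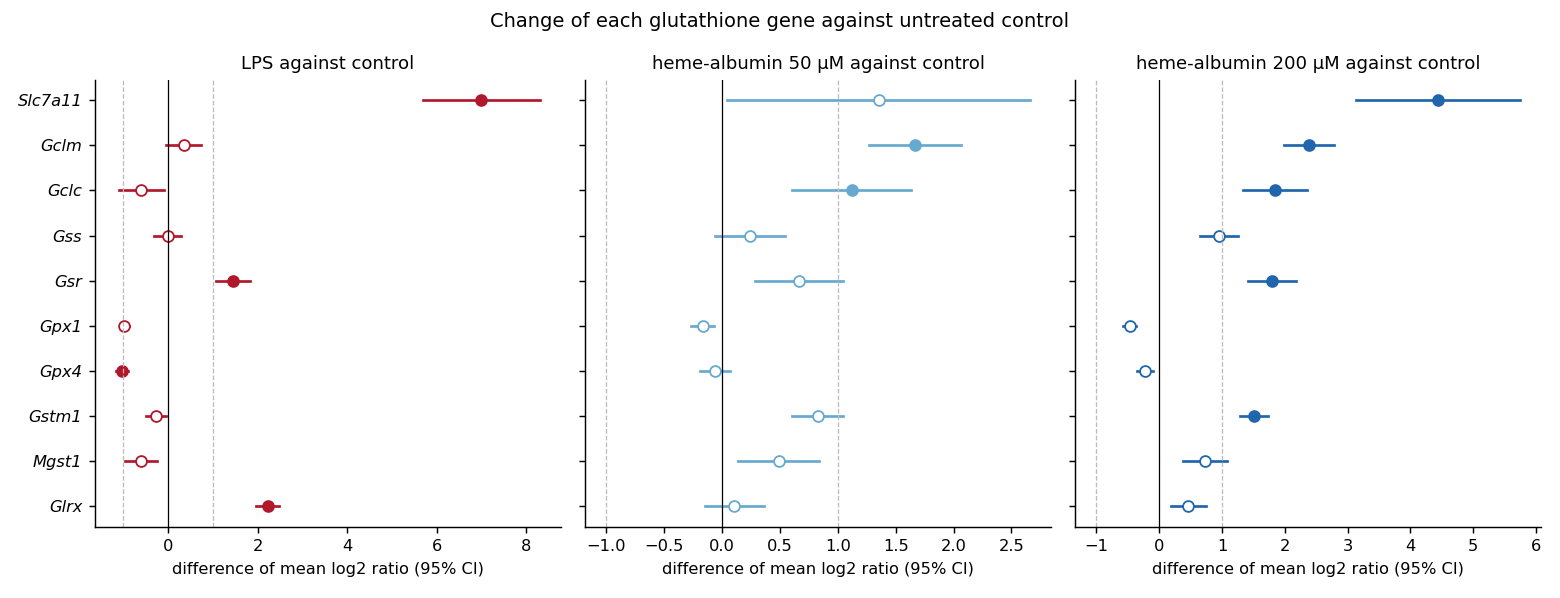
Difference of mean log2 ratio from control (horizontal axis, a scale of its own in each panel) with its 95% confidence interval, for LPS, heme-albumin 50 µM and heme-albumin 200 µM. Filled points were called, dashed lines mark 2-fold; LPS moved Slc7a11, Gsr, Gpx4 and Glrx, 50 µM Gclm and Gclc, and 200 µM Slc7a11, Gclm, Gclc, Gsr and Gstm1.

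Both peroxidases were lowest with LPS. Gpx1 (gene ID 14775, chromosome 9), the abundant cytosolic selenoenzyme that reduces hydrogen peroxide, read -0.99, -0.96, -0.94 and -0.96 on LPS arrays a to d, against 0.02, 0.02 and 0.01 on control arrays b to d. Its ratios on arrays b to d were -0.20, -0.12 and -0.14 at 50 µM and -0.43, -0.51 and -0.42 at 200 µM. Array a of control, 50 µM and 200 µM had an outlier flag at this probe and was left out. The 4 groups fell into 4 separate ranges, with control highest and LPS lowest.

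For Gpx1 the difference from control was -0.98 ± 0.04 with LPS (1.97-fold lower, adjusted p = 9.0e-10), which misses the 2-fold limit by a small margin and passed it with normexp (-1.08) and with no background subtraction (-1.10). On red signal alone the LPS difference shrank to -0.74. In the main fit the difference from control was -0.47 ± 0.05 at 200 µM (1.39-fold lower, adjusted p = 2.0e-05) and -0.17 ± 0.05 at 50 µM (adjusted p = 0.087). The higher dose lay below the lower by -0.30 ± 0.05 (adjusted p = 0.0019, and 0.063 with the replicate block), and above LPS by 0.51 ± 0.04 (adjusted p = 4.4e-07).

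Gpx4 (gene ID 625249, chromosome 10), the selenoenzyme that reduces lipid hydroperoxides in membranes and is known for restraining ferroptosis, read -1.01, -1.06, -1.10 and -1.23 on LPS arrays a to d, against -0.08, -0.12, 0.03 and -0.11 on control arrays. Its ratios were -0.13, -0.04, -0.11 and -0.24 at 50 µM and -0.21, -0.27, -0.30 and -0.37 at 200 µM. LPS lay below all other arrays, 200 µM below all control arrays, and 50 µM overlapped both control and 200 µM. The LPS difference was -1.03 ± 0.06 (2.04-fold lower, adjusted p = 5.4e-10), so it sat at the 2-fold limit. It fell under that limit with normexp (-0.87), with no background subtraction (-0.87), on centred arrays (-0.94), on red signal alone (-0.81), on the first scan day (-0.94), and without control array c (-0.998) or LPS array d (-0.99). The highest adjusted p among these was 1.3e-05. At 200 µM the difference was -0.22 ± 0.06 (adjusted p = 0.016) and at 50 µM -0.06 ± 0.06 (adjusted p = 0.76).

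Both transferases were higher with heme-albumin than on control arrays. Gstm1 (gene ID 14862, chromosome 3), a cytosolic mu-class transferase, read 1.03, 0.85, 0.66 and 0.64 on 50 µM arrays a to d and 1.68, 1.57, 1.35 and 1.29 on 200 µM arrays, against -0.01, -0.02, -0.09 and -0.03 on control arrays. These 3 ranges did not overlap. The difference from control was 1.51 ± 0.10 at 200 µM (2.84-fold, adjusted p = 9.4e-08) and 0.83 ± 0.10 at 50 µM (1.78-fold, adjusted p = 0.00027), and the step between doses was 0.68 ± 0.10 (1.60-fold, adjusted p = 0.00072). Its second probe gave 1.32 at 200 µM and 0.76 at 50 µM.

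On LPS arrays the brighter Gstm1 probe read between -0.45 and -0.14, all below control, for a difference of -0.28 ± 0.10 (adjusted p = 0.023). The second probe gave 0.09 ± 0.11 (adjusted p = 0.47), so the probes differ in sign and no direction is given for LPS. Mu-class transferases are close in sequence, and how much of either probe's signal came from relatives was not tested.

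Mgst1 (gene ID 56615, chromosome 6), the microsomal transferase that also reduces lipid peroxides, read -0.19, -0.51, -0.96 and -0.65 on LPS arrays a to d, against 0.04, 0.07, 0.03 and -0.0047 on control arrays. It read 0.86, 0.55, 0.34 and 0.34 at 50 µM and 1.07, 0.92, 0.44 and 0.63 at 200 µM. All LPS arrays were below and all heme-albumin arrays above control, and the doses overlapped. The difference from control was -0.61 ± 0.16 with LPS (1.53-fold lower, adjusted p = 0.0033), 0.73 ± 0.16 at 200 µM (1.66-fold, adjusted p = 0.0047) and 0.49 ± 0.16 at 50 µM (adjusted p = 0.15, and 0.017 with the replicate block). None of these reached 2-fold, and the second probe gave -0.60, 0.78 and 0.52.

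Set directly against each other, 200 µM heme-albumin exceeded LPS for Gclc (2.44 ± 0.24), Gclm (2.04 ± 0.18), Gstm1 (1.79 ± 0.10) and Mgst1 (1.34 ± 0.16), and lay below it for Slc7a11 and Glrx. These 6 called members stand in a comparison that called 30.3% of all genes (16.8% higher, 13.6% lower). The same 6 genes were called in the same directions for 50 µM against LPS, where 30.6% of all genes were called (16.7% higher, 13.9% lower), with Gclc at 1.71 ± 0.24, Gclm at 1.32 ± 0.18, Gstm1 at 1.11 ± 0.10 and Mgst1 at 1.10 ± 0.16. Both comparisons share the LPS arrays. The largest adjusted p among the called members was 0.0014 for 200 µM and 2.1e-05 for 50 µM. At 50 µM against LPS, Gclm lost its call on the first scan day (0.91), and Mgst1 lost it with normexp (0.91), with no background subtraction (0.91), on red signal alone (0.98), and without 50 µM array a (0.99) or LPS array c (0.97). Gstm1 lost it on its second probe (0.66), with normexp (0.88), with no background subtraction (0.89) and on red signal alone (0.74). Gpx4 was 0.81 ± 0.06 higher at 200 µM than with LPS, and 0.97 ± 0.06 higher at 50 µM, both under 2-fold.

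Between the doses, 200 µM against 50 µM, only Slc7a11 and Gsr of the 10 were called, both higher at 200 µM, in a comparison that called 0.831% of all genes (0.635% higher, 0.196% lower). On adjusted p alone, Gclm, Gss and Gstm1 were higher and Gpx1 lower at 200 µM as well, where 7.61% of all genes passed (4.2% higher, 3.41% lower). On red signal alone, Gclm, Gstm1 and Gpx1 did not pass (adjusted p 0.58, 0.44 and 0.33), while Gss did (0.0052). The differences that did not pass on adjusted p were Gclc (0.73, 95% confidence interval 0.21 to 1.24), Gpx4 (-0.16, -0.28 to -0.03), Mgst1 (0.24, -0.11 to 0.60) and Glrx (0.36, 0.09 to 0.63). For Gclc the ranges of the doses nonetheless did not overlap. An interval for 1 gene leaves out the adjustment over all genes. These intervals also use the spread pooled over all groups, LPS arrays included.

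The wider pathway was read from a list of 73 further genes, of which 72 had a named probe and 57 passed the filter on dim probes. With LPS, 18 of the 57 were called (10 higher, 8 lower), a share close to the 30.7% of all genes, and the median difference over the 57 was -0.29. At 200 µM heme-albumin 8 were called, all higher, where 3.03% of all genes were called, and the median over the 57 was 0.11. At 50 µM 3 were called, all higher, where 0.368% of all genes were called, and the median over the 57 was 0.03. Up to 4 genes with the largest called differences are given for each group, and the remaining called genes (Chac2, Gstt3, Gsto1, Gstp2 and Hagh) were chosen after their values were seen.

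Of 8 measured genes of cysteine supply, 4 were called with LPS, where 30.7% of all genes were, and none at either dose of heme-albumin. The 3 that rose with LPS were Cth, which makes cysteine from cystathionine (1.76 ± 0.40), Slc1a4, a neutral amino acid carrier (1.62 ± 0.06), and Slc3a2, the partner of Slc7a11 (1.58 ± 0.10). Ctns, which exports cystine from lysosomes, fell (-1.52 ± 0.13). Slc3a2 ratios ran between 1.28 and 1.85 on LPS arrays, against -0.07 to -0.02 on control arrays, and between -0.06 and 0.01 at 50 µM and 0.12 and 0.35 at 200 µM. The difference of Slc3a2 at 200 µM was 0.24 ± 0.10 (adjusted p = 0.11). Red signal of Cth was well above background on 4 of 4 LPS arrays but on 2 at 200 µM, 1 at 50 µM and 1 of 4 control arrays. Cth thus passed the filter on dim probes only through LPS, the group where it was high, and its size rests on dim control signal.

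Among 10 measured genes of glutathione breakdown, LPS raised Ggct (2.66 ± 0.06), Chac1 (2.35 ± 0.16), Lap3 (1.20 ± 0.15) and Chac2 (1.04 ± 0.13) and lowered Oplah (-1.19 ± 0.19). That comparison called 30.7% of all genes. Ggct is a gamma-glutamylcyclotransferase, Chac1 and Chac2 cleave glutathione itself, Lap3 is an aminopeptidase, and Oplah opens the ring of 5-oxoproline. Chac1, a known ATF4 target, was the one gene of this group called with 200 µM heme-albumin (1.88 ± 0.16, adjusted p = 7.7e-07), where 3.03% of all genes were called. It ran between 2.02 and 2.71 on LPS arrays and between 0.04 and 0.15 on control arrays, and between 0.63 and 1.04 at 50 µM and 1.61 and 2.34 at 200 µM. The step of Chac1 between doses was called too (1.16 ± 0.16, adjusted p = 0.00029).

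Of 19 other transferases measured, 200 µM heme-albumin raised Gsta3 (3.38 ± 0.32), Mgst2 (2.28 ± 0.18), Gstm3 (1.45 ± 0.12) and Gstp2 (1.11 ± 0.11), which are of the alpha, microsomal, mu and pi classes. That comparison called 3.03% of all genes. Gstp2 and its near copy Gstp1, and the mu-class genes, may share signal. Gsta3 and Mgst2 were also called at 50 µM (1.60 ± 0.32 and 1.53 ± 0.18), where 0.368% of all genes were called. LPS raised Gstt1 (2.84 ± 0.07) and lowered Gstt3 (-1.32 ± 0.05) and Gsto1 (-1.13 ± 0.06), where 30.7% of all genes were called. Gsta3 stood at -0.92 ± 0.32 and Mgst2 at -0.90 ± 0.18 with LPS (adjusted p = 0.017 and 3.0e-04), both under 2-fold. Gsta3 was 4.30 ± 0.32 higher at 200 µM than with LPS, the largest difference in the wider list in that comparison.

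The 3 export pumps described next were called with heme-albumin, and 1 of them with LPS as well. Of all genes, 3.03% were called at 200 µM, 0.368% at 50 µM and 30.7% with LPS. Abcc1, Abcc4 and Abcc5, pumps of the MRP family, of which MRP1 (Abcc1) is known to carry glutathione and its conjugates, rose at 200 µM by 1.75 ± 0.09, 1.26 ± 0.07 and 1.77 ± 0.07. With LPS, Abcc5 rose by 1.74 ± 0.07, while Abcc1 (0.91 ± 0.09) and Abcc4 (0.96 ± 0.07) stayed under 2-fold with adjusted p of 1.9e-07 and 7.2e-09. Only Abcc5 reached 2-fold at 50 µM (1.02 ± 0.07, adjusted p = 2.7e-06). Esd, which hydrolyses S-formylglutathione, rose with LPS (1.20 ± 0.09, with 1 LPS array left out for an outlier spot), and Hagh, glyoxalase II, fell (-1.18 ± 0.09).

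The remaining groups were small, and their calls stand beside 30.7% of all genes called with LPS, 3.03% at 200 µM and 0.368% at 50 µM. Of 3 other peroxidases measured, Gpx3, the secreted form, fell with LPS (-1.17 ± 0.13), and Gpx7 was called lower with LPS (adjusted p = 0.00047) but was well above background on none of the 4 LPS arrays, so no size is given for it. Gpx3 was also lower at 200 µM (-0.73), on adjusted p alone, where 12% of all genes were. Its ratios ran from -0.81 to -0.46 at 200 µM, against 0.02 to 0.14 on control arrays. None of the 3 other glutaredoxins was called in any comparison with control. Of 6 genes for placing selenocysteine, the residue at the active site of Gpx1 and Gpx4, Pstk fell with LPS (-1.14 ± 0.16) and none was called with heme-albumin.

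Of 8 regulators, 5 were called with LPS, where 30.7% of all genes were, and none with either dose of heme-albumin, where 3.03% of all genes were called at 200 µM and 0.368% at 50 µM. Maff (2.57 ± 0.27), Atf4 (1.54 ± 0.08), Nfe2l1 (1.52 ± 0.08) and Keap1 (1.24 ± 0.10) rose with LPS, and Bach1 fell (-1.08 ± 0.14). At 200 µM, Atf4 (0.84 ± 0.08, adjusted p = 4.0e-05), Mafg (0.82 ± 0.11, adjusted p = 0.00011) and Nfe2l1 (0.31 ± 0.08, adjusted p = 0.015) passed on adjusted p alone. With LPS, 7 regulators were higher and 1 lower on adjusted p alone, where 34.5% and 44.3% of all genes were. At 50 µM, 2 were higher, where 2.07% of all genes were. Nfe2l2, which encodes NRF2, differed from control by 0.05 ± 0.04 at 200 µM (adjusted p = 0.50) and Bach1 by 0.24 ± 0.14 (adjusted p = 0.25). Nfe2l2 ratios ran from 0.46 to 0.59 on LPS arrays, against -0.07 to 0.0003 on control arrays. The Atf4 values rest on 3 arrays in each group, since 1 spot per group carried an outlier flag. These are levels of mRNA, and NRF2 is known to be controlled mainly through the stability of its protein.

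**Figure D4:**
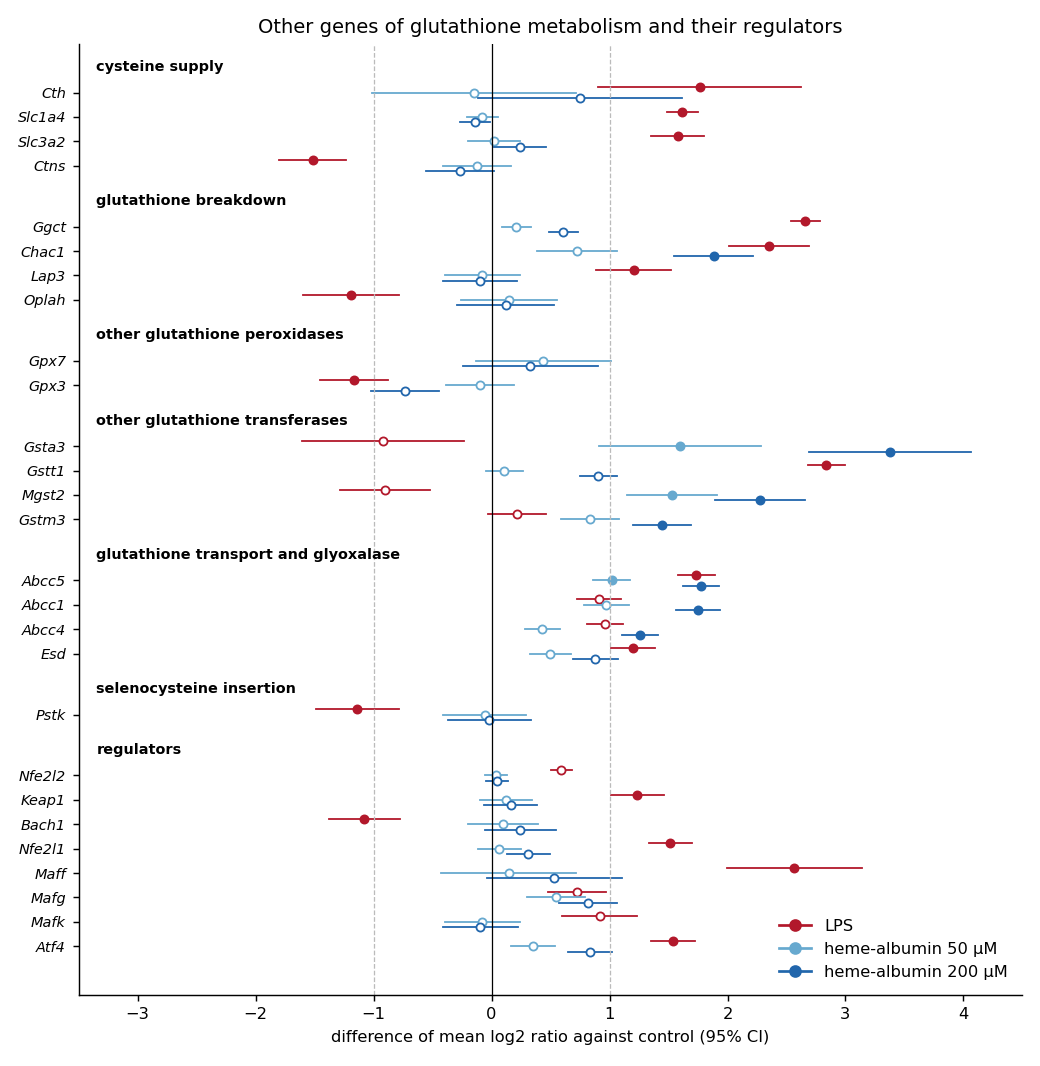
Difference of mean log2 ratio from control (horizontal axis) with its 95% confidence interval for 19 genes of the wider pathway and 8 regulators, with LPS, heme-albumin 50 µM and heme-albumin 200 µM in 3 colours; filled points were called and dashed lines mark 2-fold. Of the genes named, Gsta3, Mgst2, Gstm3, Abcc1 and Abcc4 were called at 200 µM and not with LPS, in comparisons that called 3.03% and 30.7% of all genes; the LPS value of Gpx7 is left out because its spot was not well above background.

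Across the 16 arrays, Gclm, Gclc and Gstm1 varied together (Pearson r = 0.94 for Gclm with Gclc, 0.93 for Gclm with Gstm1 and 0.95 for Gclc with Gstm1). Slc7a11 ran with Glrx (r = 0.87) and against Gpx1 (r = -0.95), and hardly with Gclm (r = 0.13). Gpx4 ran against Glrx (r = -0.98). These values are a description over 16 arrays in 4 groups that share green reference RNA, less the arrays left out for Gpx1 and Glrx.

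Other genes tested that had a ratio on all 16 arrays were ranked by Pearson r with Gclm and with Slc7a11. The genes most like Gclm were Me1 (0.98), Slc48a1 (0.97), Ear2 (0.96), Aox1 (0.96) and Gstm3 (0.96). The same ratios picked the genes of both rankings, so the differences given for them are a description and no separate support. Me1, malic enzyme, supplies NADPH, and Slc48a1 (HRG1) moves heme out of the phagolysosome. Me1 differed from control by 1.77 ± 0.09 at 200 µM and 1.03 ± 0.09 at 50 µM, and by 0.13 ± 0.09 with LPS. Aox1, aldehyde oxidase, differed by 3.20 ± 0.35, 2.12 ± 0.35 and 0.57 ± 0.35 in the same 3 comparisons. The genes most like Slc7a11 were Msantd3 (0.98), Abhd2 (0.97), Trem3 (0.97), Ppfibp2 (0.97) and Hdac7 (0.97). Trem3 differed from control by 3.26 ± 0.27 with LPS, 1.95 ± 0.27 at 200 µM and 0.33 ± 0.27 at 50 µM, and Msantd3 by 2.95 ± 0.12, 1.90 ± 0.12 and 0.67 ± 0.12.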

How the data were processed

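Deposited Agilent 4x44K scanner files of 16 arrays were read. The LogRatio column holds log10 of red over green, which the authors computed in Agilent Feature Extraction (version 10.7.3.1). It had spatial detrending, background subtraction and a combined linear and lowess dye correction, per the file headers. The processed signals are deposited intensity values. Feature Extraction's own quality result was in range for some arrays and to be evaluated for others. The latter were control arrays a, c and d, 50 µM array d, 200 µM arrays a and d, and LPS arrays a and d. All were kept. The log10 ratios were turned into log2 ratios here from the deposited column. Spots of 1 probe were averaged, outlier and control spots left out, and 21458 probes kept whose red spot passed the scanner's background test on every array of some group. Probes were named through RefSeq on GRCm38.p6, giving 12759 genes, each read from its brightest probe.

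Groups were compared with limma 3.58.1 in R 4.3.3 (lmFit, eBayes), with Benjamini-Hochberg adjustment per comparison. The fit was also run on simulated data with independent noise of the same spread in every group. That simulation holds no slide, scan day or dim-signal effects, so it cannot test how the fit handles them. Members and lists were chosen with earlier results of these data known. Named genes are all members and, in each wider group, up to 4 with the largest called difference. Control arrays hold untreated RNA in both colours, so their spread may be mainly technical, and the number of arrays limits precision. Each replicate letter is 1 slide. The sample titles also give each letter a tag of its own that all groups share, and they do not say what it means. Same-letter arrays are thus matched by title and by slide, and the main fit leaves this matching out. Deviations of same-letter arrays correlated at 0.0981 to 0.115 for LPS and control and at 0.103 to 0.502 in the other 5 comparisons. Alternatives were other background corrections, centring, red signal alone, floored signals, blocks, other filters, and each array left out.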

Additional observations from a re-analysis of the deposited data

How the results depend on the processing

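With a replicate block the members called stayed at 4 (LPS), 5 (200 µM heme-albumin) and 2 (50 µM) against control, 2 between doses, and 6 for each dose against LPS. The block changed no member's call at 2-fold, while on adjusted p alone it moved Gsr, Mgst1, Glrx and Gpx1 across 0.05 as given above, and the counts of the wider list were 18, 8, 3, 2, 21 and 20 in the same order of comparisons, as without it. With no fold minimum, members called were 8 with LPS, 10 at 200 µM and 6 between doses, and wider genes were 46, 18, 10, 16, 50 and 48. Members called at 50 µM were 1 on red signal alone (Slc7a11, with Gclm and Gclc lost) and 1 on the first scan day (Gclm). Between doses they dropped to 1 with normexp and on the first scan day, and wider genes to 1 with normexp, on red signal alone and on the first scan day. For 50 µM against LPS, wider genes called were 12 (6 higher, 6 lower) with normexp and 12 with no background subtraction, beside 20 (12 higher, 8 lower). Leaving out 1 array at a time gave 3 to 4 members with LPS, 5 to 6 at 200 µM, 1 to 2 at 50 µM, 2 between doses, 6 to 7 for 200 µM against LPS and 5 to 7 for 50 µM against LPS. For the wider list it gave 16 to 21, 8 to 9, 2 to 4, 2, 19 to 22 and 19 to 21.

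Of 960 member values under the other alternatives, 913 kept their side of the threshold, 19 lost it and 28 gained it, and none that was called changed sign. Dropping the fold minimum, among those alternatives, can only add calls, and most of the 28 gains came from it. Blocks leave the sizes nearly unchanged, so the number that kept their side is no independent support. With arrays left out, 464 of 480 kept their side, 9 lost it and 7 gained it. Values called in neither setting were not scored for sign. The cause of the remaining shifts was not tested. Signal near background limits the size given for Slc7a11. Dixon's test found no single array apart in any of the 36 sets of 4 ratios tested. Sets of Gpx1 and Glrx with a flagged spot left out were not tested. The test looks for 1 array apart and not for splits by scan day, such as those of Gclm, Gclc and Gss with LPS.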
